A study of Mus musculus with 8 samples.

Results

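The genes described here encode the proteins of the mitochondrial ribosome. They were read from probe sets, groups of short probes on the array whose signals are combined. A probe set need not be specific to a single transcript. Those whose only platform gene symbol begins with Mrpl or Mrps followed by a number were taken. This gave 127 probe sets of 74 genes, out of 20380 probe sets of 12393 genes with a single symbol. Values are log2(intensity + 16), where the intensity is the deposited signal of a probe set. All 74 genes, and 113 of the 127 probe sets, lay above the brightness filter, a mean of 7.04 on that scale, which removed the dimmest 30% of probe sets and left 9294 genes tested. Each gene is represented by its brightest probe set unless another is named.

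Primary keratinocytes, which build the epidermis, were cultured from mice, and all 8 arrays came from cells infected with an EMPTY retrovirus, which carries no introduced gene. There were 2 untreated arrays, called replicates 1 and 2 here, and 6 arrays of cells given Tamoxifen, a ligand of the estrogen receptor, with 1 array at each of 20, 40, 60, 120, 180 and 240 min. The labels give no strain, sex, age, dose, number of animals or batch. Nothing in them ties an array to its own culture or animal, so a p-value here reflects the scatter among 8 arrays, and that scatter may be technical. Because no time has a replicate, times were pooled into a window of 20 to 60 min and a window of 120 to 240 min, with 3 arrays each, and the spread within a window holds the differences between its times.

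The mitochondrial ribosome translates the few messenger RNAs of the mitochondrial genome, which encode core subunits of the respiratory chain and the ATP synthase. Its RNAs are made in the mitochondrion, but all its proteins are encoded in the nucleus, made in the cytosol and imported. Genes named Mrpl belong to the large subunit, which joins amino acids, and genes named Mrps to the small subunit, which reads the messenger. Some have bacterial homologues and others were added during the evolution of mitochondria. The names are not exact: Mrps30 and Mrps18a encode proteins of the large subunit, and Mrps36 encodes a component of the 2-oxoglutarate dehydrogenase complex.

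Across the series, array medians of the deposited intensities lay between 192 and 198. Of the keratinocyte markers, 14 of 14 measured were above the filter, with Krt14 and Krt5 at 14.29 and 14.11. Melanocyte transcripts were present too: 6 of 6 measured markers passed, Dct being at 11.89, and their summed level was 13.15 to 13.22 in untreated arrays, 13.10 to 13.24 at 20 to 60 min and 13.17 to 13.29 at 120 to 240 min. Fibroblast markers passed in 8 of 10 cases, with summed levels of 10.73 to 10.80, 10.69 to 10.73 and 10.76 to 10.84 in the same groups, and leukocyte and Langerhans cell markers in 5 of 10, with 10.36 to 10.46, 10.24 to 10.32 and 10.32 to 10.45. Endothelial markers passed in 0 of 5 cases, with sums of 8.78 to 8.86, 8.75 to 8.79 and 8.83 to 8.88, skeletal muscle markers in 4 of 7, with 9.98 to 9.98, 9.96 to 10.02 and 9.98 to 10.06, and of 4 adipocyte markers only Fabp4 passed, with sums of 10.13 to 10.84, 9.57 to 9.91 and 9.93 to 11.12. The part of other cell types in the results below was not tested, and in bulk RNA fewer cells of a type and less RNA per cell cannot be told apart. Averaged over 32 genes of the G2 and M phases, the level was 9.54 and 8.79 in untreated replicates 1 and 2, 9.03, 9.35 and 9.23 at 20, 40 and 60 min and 8.80, 8.89 and 9.45 at 120, 180 and 240 min, so untreated replicate 2 and the 120 and 180 min arrays were the lowest.

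Mean levels over the 8 arrays ran from 8.48 for Mrps11 to 11.49 for Mrpl51, with a median of 9.97 where the median of all genes tested was 8.64; different probe sets respond differently, so no order of the members is drawn from this. The members varied over the arrays about as much as other genes. The range of a gene over the 8 arrays had a median of 0.25 for the members and 0.23 for all genes tested, and 4 members (5.41%) had a range of at least 0.5, against 7.5% of all genes. A range of at least 1 was found in 0 members and in 0.581% of all genes. Those with at least 0.5 were Mrpl48 (0.84), Mrps25 (0.68), Mrps31 (0.53) and Mrpl23 (0.53), and the narrowest was Mrps14 at 0.09. The untreated replicates differed from each other by a median of 0.08 in absolute value, both for the members and for all genes tested. Replicate 2 was below replicate 1 for 47 of 74 members, which is 63.5%, against 42.5% of all genes (57.5% were above). The difference was largest for Mrps25, which was 9.18 in replicate 1 and 8.70 in replicate 2.

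**Figure D1:**
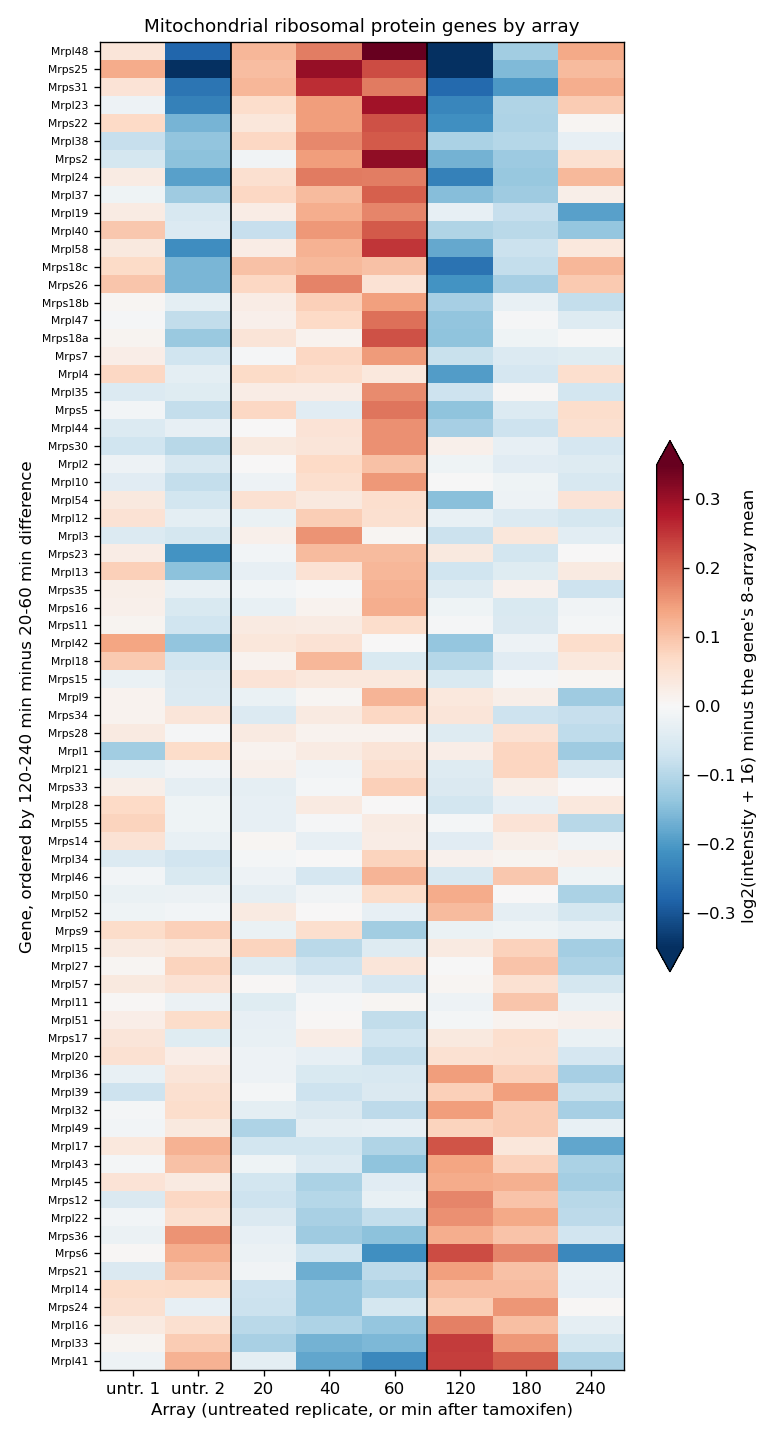
Each of the 74 mitochondrial ribosomal protein genes (rows) on the 8 arrays (columns: untreated replicates 1 and 2, then min after tamoxifen), coloured by log2(intensity + 16) minus the gene's own mean over the arrays; black lines part the untreated arrays and the 2 tamoxifen windows. Rows are sorted by the difference between the windows, so the contrast of top and bottom is made by the sorting; 48 genes were lower and 26 higher at 120 to 240 min than at 20 to 60 min.

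The comparison of 20 to 60 min with untreated cells describes the first hour after tamoxifen. The series has no vehicle-treated array, and the untreated arrays carry no time. An effect of tamoxifen therefore cannot be told apart from handling or time in culture, here or in the later window. Of the 74 members, 45 were higher and 29 lower than in untreated arrays, with a median log2 difference of 0.04 where the median of all genes tested was -0.01, with 44.5% of all genes higher and 55.5% lower. No member passed, nor did any other gene (limma, 0% of 9294 called, smallest adjusted p = 0.331). At an unadjusted p under 0.05 there were 7 members higher (6.67% of all genes) and 3 lower (7.19% of all genes), in all 13.5% of members where 13.9% of all genes were past that limit, so the count of members was near the background. Differences of single members ran from -0.20 for Mrpl41 to 0.34 for Mrpl48.

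Mrpl38, which encodes a mitochondria-specific protein of the large subunit, had the smallest p. It was 8.67 and 8.61 in the untreated arrays, 8.82, 8.92 and 8.96 at 20, 40 and 60 min and 8.64, 8.65 and 8.72 at 120, 180 and 240 min. All 3 arrays of the first hour lay above all 5 others. The log2 difference from untreated was 0.26 ± 0.06 (SE; limma, adjusted p = 0.331). A second, dimmer probe set of Mrpl38 gave 0.11. Mrpl37, another large-subunit protein found only in mitochondria, was 9.38 and 9.28 in untreated arrays, 9.47, 9.51 and 9.61 in the first hour and 9.25, 9.27 and 9.42 later. Its values in the first hour again lay above all the others, with a difference of 0.20 ± 0.07. Mrps30 was 9.79 and 9.77, then 9.90, 9.90 and 10.02, then 9.88, 9.83 and 9.80. All its tamoxifen values were above both untreated ones, and the early difference was 0.16 ± 0.06.

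Mrpl23, whose product sits at the exit of the tunnel through which new proteins leave the ribosome, was 10.05 and 9.84 in untreated arrays, 10.13, 10.22 and 10.37 at 20 to 60 min and 9.84, 9.97 and 10.16 later. Its difference of 0.29 ± 0.11 compares with a gap of 0.22 between the untreated replicates. Mrps2, of the small subunit, was 9.16 and 9.07, then 9.21, 9.36 and 9.53, then 9.05, 9.09 and 9.27. The 60 min array held the highest value of both genes. The difference for Mrps2 was 0.25 ± 0.10, and its dimmer probe set gave 0.10.

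Other members were lower in the first hour. Mrpl14, whose product lies at the interface of the subunits, was 9.38 and 9.39 in untreated arrays, 9.24, 9.18 and 9.21 at 20, 40 and 60 min and 9.43, 9.43 and 9.29 at 120, 180 and 240 min. Its 3 early values lay below all 5 others, and the difference from untreated was -0.17 ± 0.06 (SE; limma, adjusted p = 0.331). Mrpl16, a large-subunit protein with a bacterial homologue, was 10.27 and 10.29, then 10.14, 10.13 and 10.10, then 10.41, 10.34 and 10.20, a difference of -0.16 ± 0.06 with the same separation. Mrpl33, a small protein of the large subunit, was 11.38 and 11.46, then 11.25, 11.20 and 11.21, then 11.61, 11.52 and 11.31. Its difference was -0.20 ± 0.08, and a second probe set, near the filter at 7.24, gave -0.09. Mrpl41 was 10.13 and 10.27, then 10.11, 9.97 and 9.92, then 10.39, 10.36 and 10.03. Its difference was -0.20 ± 0.11, and its 20 min value lay close to untreated replicate 1. Mrps36, which is not a stable part of the ribosome, had a difference of -0.17 ± 0.08.

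All 3 arrays of the first hour were above both untreated arrays for 21 members (16.1% of all genes tested), and below both for 17 (20.1% of all genes); the members' shares were 28.4% and 23%. These counts depend on the 2 untreated arrays. Without untreated replicate 2, 1 member was higher at an unadjusted p under 0.05 (1.5% of all genes) and 0 lower (2.18% of all genes). Without untreated replicate 1, 15 were higher (8.21% of all genes) and 1 lower (9.16% of all genes). With the mean of the G2 and M phase genes of each array as a covariate, 5 members were called higher and none lower in limma. This was 6.76% of members where 6.19% of all genes were called in either direction, so the count was near the background. In that limma fit the 5 were Mrps25 (0.30 ± 0.05, adjusted p = 0.0227), Mrps31 (0.27 ± 0.05, adjusted p = 0.0227), Mrpl38 (0.26 ± 0.05, adjusted p = 0.0247), Mrpl23 (0.28 ± 0.06, adjusted p = 0.0329) and Mrpl24 (0.21 ± 0.05, adjusted p = 0.0422).

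At 120 to 240 min the members were close to untreated cells. Of 74, 35 were higher and 39 lower, with a median difference of -0.0040 against 0.0072 for all genes, of which 55.2% were higher and 44.8% lower. With arrays centred on their medians the split turned to 43 higher and 31 lower. All differences lay between -0.14 for Mrpl40 and 0.08 for Mrps23. No gene was called (limma, 0%, smallest adjusted p of a member 0.999, of any gene 0.0567), and 0 members had an unadjusted p under 0.05, against 3.17% of all genes (1.36% higher, 1.82% lower). Mrps9, of the small subunit, was 9.48 and 9.50 in untreated arrays and 9.39, 9.40 and 9.38 at 120, 180 and 240 min, with early values of 9.39, 9.47 and 9.29, so that every tamoxifen array was below both untreated ones. Its late difference was -0.10 ± 0.06 (SE). The dimmer Mrps9 probe sets above the filter gave late differences of -0.10, 0.0090 and -0.03, and none of them had this separation. Mrpl40 was 9.83 and 9.69, then 9.63, 9.64 and 9.60 late, a difference of -0.14 ± 0.09, although it was 9.66, 9.89 and 9.95 at 20, 40 and 60 min. On the other side, Mrpl34 was 9.75 and 9.73 in untreated arrays and 9.81, 9.81 and 9.82 late, a difference of 0.07 ± 0.05. All 3 late arrays were above both untreated arrays for 2 members, Mrpl34 and Mrps30 (9.26% of all genes), and below both for 3, Mrpl40, Mrpl51 and Mrps9 (7.98% of all genes). The 2 windows are compared with the same untreated arrays.

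Between the windows, more members were lower than higher. At 120 to 240 min 48 of 74 were lower than at 20 to 60 min and 26 higher, with a median log2 difference of -0.05 where the median of all genes was 0.02, with 43.8% of all genes lower and 56.2% higher. No gene was called (limma, 0%, smallest adjusted p of a member 0.175). At an unadjusted p under 0.05, 15 members were lower, which is 20.3%, against 7.45% of all genes, and 6 were higher, which is 8.11%, against 12% of all genes. In either direction this was 28.4% of members, against 19.5% of all genes. These counts depended on single arrays. Without the 60 min array 4 members were lower (4.41% of all genes) and 4 higher (9.17%). Without the 120 min array 5 were lower (3.65%) and 4 higher (5.79%), and without the 180 min array 8 (3.74%) and 4 (6.74%). Without the 240 min array 18 were lower (13.1%) and 17 higher (17.9%). All 3 late arrays lay below all 3 early ones for 15 members (8.5% of all genes), and above them for 5 (13.6% of all genes).

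The lower group was led by Mrpl38 (-0.23 ± 0.05, SE; limma, adjusted p = 0.175), Mrpl19 (-0.21 ± 0.06), Mrpl37 (-0.22 ± 0.06), Mrps18b (-0.16 ± 0.05) and Mrps22 (-0.24 ± 0.08). The dimmer probe set of Mrpl38, at a mean of 7.30, gave -0.05, and its early and late values overlapped. Mrpl19 was 9.46, 9.56 and 9.60 in the first hour and 9.40, 9.35 and 9.24 later. Its untreated values were 9.46 and 9.37, so it was lowest at 240 min. Mrps22, a mitochondria-specific protein of the small subunit, was 9.91, 10.02 and 10.09 early and 9.66, 9.76 and 9.88 late, with untreated values of 9.94 and 9.71. The windows did not overlap for either gene, but untreated replicate 1 of Mrps22 lay within the early values. The largest differences were those of Mrpl48 (-0.38 ± 0.14) and Mrps25 (-0.35 ± 0.14). Mrpl48 was 9.21, 9.27 and 9.48 early and 8.64, 8.97 and 9.22 late, with untreated values of 9.14 and 8.81. Mrps25 was 9.16, 9.35 and 9.28 early and 8.67, 8.89 and 9.16 late, while its dimmer probe sets above the filter gave differences of -0.0076 and -0.13. In both genes the 240 min array lay within the early values, and the low arrays, untreated replicate 2 and 120 and 180 min, were those with the lowest G2 and M phase means. Mrps31 had the same order, with early values of 9.56, 9.70 and 9.62, late values of 9.17, 9.24 and 9.57 and untreated values of 9.49 and 9.19. The part of the cell cycle in these differences was not tested beyond the covariate fit, in which Mrps25 (-0.26 ± 0.05, adjusted p = 0.0253), Mrps31 (-0.23 ± 0.05, adjusted p = 0.0257), Mrpl38 (-0.21 ± 0.05, adjusted p = 0.0299) and Mrps22 (-0.19 ± 0.05, adjusted p = 0.0483) were called lower in limma and Mrpl33 (0.22 ± 0.05, adjusted p = 0.0403) higher. These calls made up 6.76% of members, near the 5.52% of all genes called.

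The higher group held Mrpl33 (0.26 ± 0.07, SE; limma, adjusted p = 0.184), Mrpl16 (0.20 ± 0.06), Mrpl14 (0.17 ± 0.05), Mrps24 (0.17 ± 0.05) and Mrpl41 (0.26 ± 0.10). Mrps24, whose bacterial homologue lines the path of the incoming messenger, was 9.73, 9.67 and 9.74 early and 9.89, 9.96 and 9.81 late, with untreated values of 9.86 and 9.77. Mrpl33, Mrpl16 and Mrpl41 had their highest value at 120 min and were lower again at 240 min. Without the 240 min array, 8 members were called higher and 8 lower (limma, 11% of all genes called), among them Mrpl48 at -0.52 ± 0.13 (adjusted p = 0.0368), Mrpl41 at 0.38 ± 0.07 (adjusted p = 0.0246) and Mrpl33 at 0.34 ± 0.05 (adjusted p = 0.0203). With array weights 14 were called higher and 15 lower (30.8% of all genes called).

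**Figure D2:**
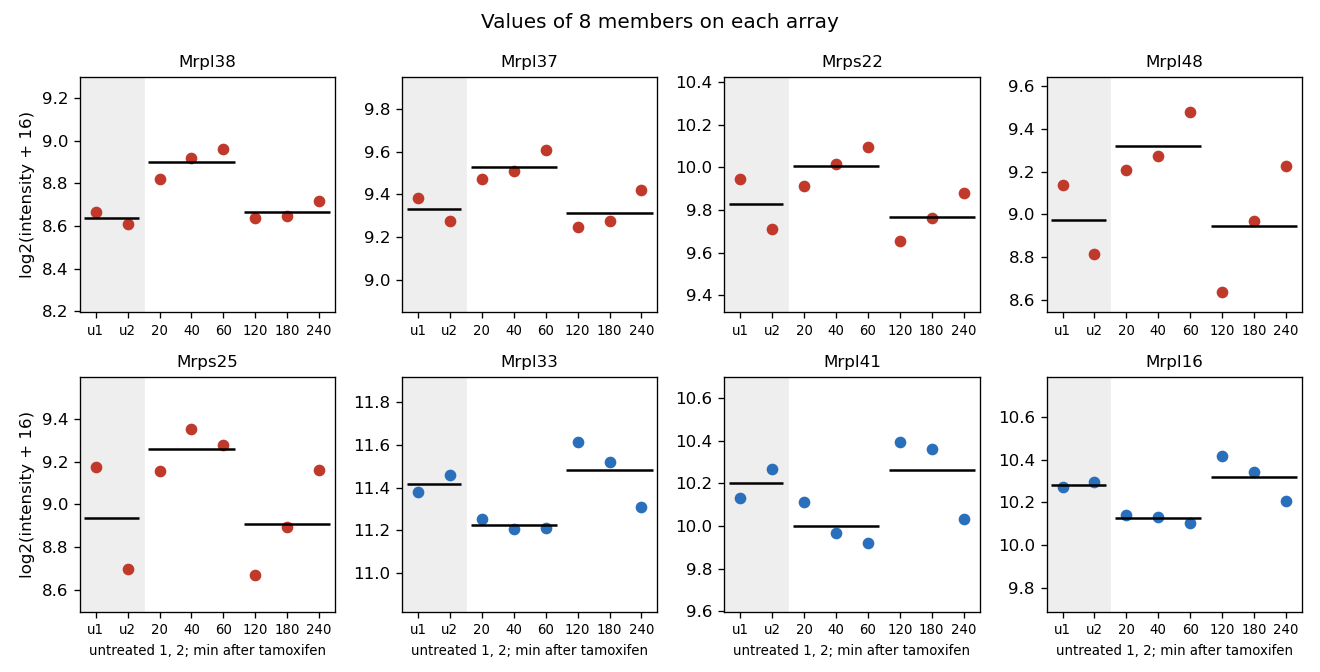
Values of 8 members on each array as log2(intensity + 16), each panel spanning the same number of log2 units; points are single arrays, black bars the means of untreated, 20 to 60 min and 120 to 240 min arrays, and the grey band marks the untreated arrays (u1, u2). The genes in red were lower and those in blue higher in the later window than in the first hour. On the 240 min array Mrps25 and Mrpl48 were at 9.16 and 9.22, within their early values, and Mrpl38 was at 8.72, below its early values.

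At single times, the members above both untreated arrays numbered 26 at 20 min (28.1% of all genes), 33 at 40 min (30%), 40 at 60 min (39.9%), 25 at 120 min (38%), 31 at 180 min (33.7%) and 16 at 240 min (34.7%). The count was highest at 60 min, where it made 54.1% of members. Those below both numbered 25 at 20 min (36.6% of all genes), 25 at 40 min (45.6%), 22 at 60 min (37.3%), 33 at 120 min (30.5%), 12 at 180 min (26.5%) and 36 at 240 min (34%). The 240 min array therefore had the fewest members above and the most below the untreated range, which was 48.6% of members. With arrays centred on their medians the count below at 180 min was 5 in place of 12.

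By place in the ribosome, the differences were spread over both subunits. In the comparison of the first hour with untreated cells, the median was 0.03 for 28 large-subunit genes with bacterial homologues (16 higher), 0.03 for 21 mitochondria-specific large-subunit genes (13 higher), 0.01 for 15 small-subunit genes with bacterial homologues (8 higher) and 0.13 for 9 mitochondria-specific small-subunit genes (8 higher). The last group, of Mrps18b, Mrps22, Mrps23, Mrps25, Mrps26, Mrps31, Mrps33, Mrps34 and Mrps35, was lower for all 9 genes between the windows, with a median of -0.16 and 4 members at an unadjusted p under 0.05 (7.45% of all genes were lower at that limit). Between the windows the other medians were -0.03, -0.02 and -0.05, with 17 of 28, 13 of 21 and 9 of 15 lower, of which 4, 5 and 2 were past that limit. Whether the groups differ was not tested. The mean of the 9 genes was 9.96 and 9.78 in untreated replicates 1 and 2, 9.94, 10.03 and 10.04 at 20, 40 and 60 min and 9.77, 9.83 and 9.92 at 120, 180 and 240 min. It was lowest in untreated replicate 2 and at 120 and 180 min, the 3 arrays with the lowest G2 and M phase means (8.79, 8.80 and 8.89), and the untreated replicates lay about as far apart as the windows. With the G2 and M phase covariate, Mrps22, Mrps25 and Mrps31 of this group were called lower between the windows.

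**Figure D3:**
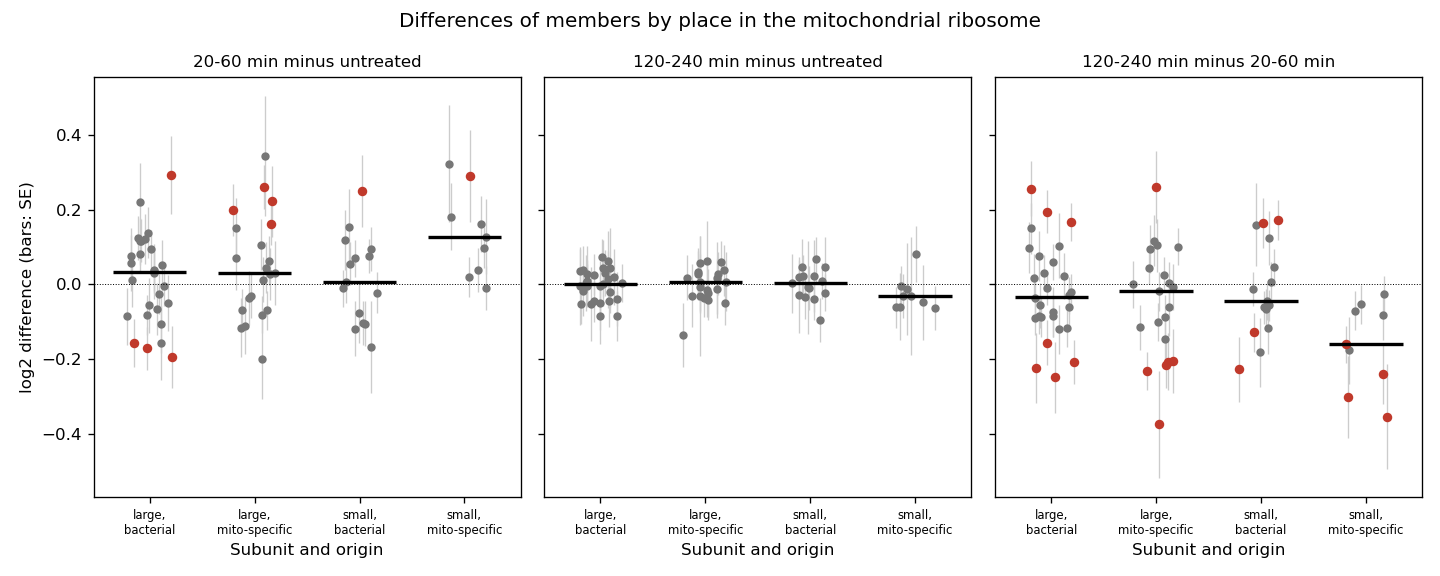
Log2 differences of single members (points, with SE bars) for the 3 comparisons, grouped by subunit and by whether the protein has a bacterial homologue or is specific to mitochondria; thick bars are group medians and red points have an unadjusted p under 0.05; Mrps36 is left out. No point passed after adjustment, and in the comparison of the windows all 9 mitochondria-specific small-subunit genes lie below 0.

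Some members are related by descent or by place. Mrps18a, Mrps18b and Mrps18c are related to the same bacterial protein but sit at different places of the ribosome. Only Mrps18c is grouped above with the bacterial homologues, and the other two are counted as specific to mitochondria. All 3 were above both untreated arrays in every array of the first hour, with differences of 0.15 ± 0.08, 0.10 ± 0.06 and 0.15 ± 0.10 (SE), and -0.15 ± 0.07, -0.16 ± 0.05 and -0.18 ± 0.09 between the windows. For Mrps18a this separation was narrow, with 10.088 at 40 min against 10.086 in untreated replicate 1. The untreated values of Mrps18c, 10.47 and 10.25, lay further apart than its early difference. The stalk recruits translation factors. Of its genes, Mrpl10 was at 0.12 ± 0.06 in the first hour, with all 3 arrays above both untreated ones, and at -0.09 ± 0.05 between the windows. Mrpl11 was at -0.0043 ± 0.05 and 0.03 ± 0.05, and Mrpl12, which has also been linked to the mitochondrial RNA polymerase, at 0.03 ± 0.05 and -0.09 ± 0.05. Mrps12, at the decoding centre, was 10.24 and 10.36 in untreated arrays, 10.22, 10.19 and 10.27 early and 10.46, 10.39 and 10.19 late, a difference of 0.12 ± 0.07. Its highest and nearly its lowest values both fell in the later window. Mrpl58, named here after its values were seen, encodes a peptidyl-tRNA hydrolase built into the large subunit that frees stalled ribosomes. It was at 0.22 ± 0.10 in the first hour and -0.21 ± 0.09 between the windows. Its values were 9.73 and 9.48 in untreated arrays, 9.72, 9.81 and 9.94 early and 9.51, 9.62 and 9.73 late. The arrays overlapped in both comparisons, and the untreated replicates lay further apart than either difference.

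For 27 genes more than 1 probe set passed the filter. Their probe sets lay on both sides of 0 for 7 genes in the first hour, for 16 in the later window and for 6 between the windows. Mrps25 was the gene with opposite signs more than 0.3 apart: in the first hour its probe sets gave 0.32, 0.16 and -0.06, of which 0.16 and -0.06 came from dim probe sets at means of 7.26 and 7.39. The 2 bright probe sets of Mrpl41 gave 0.26 and 0.27 between the windows, those of Mrpl48 -0.38 and -0.26 and those of Mrpl19 -0.21 and -0.19, so each pair had the same sign, and the Mrpl48 pair lay further apart in size than the others. For Mrpl33 the second probe set gave 0.0023.

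Other genes that serve the mitochondrial ribosome were read from lists. Of 4 proteins of the mitochondrial ribosome with other names, all 4 were higher in the first hour than untreated, Gadd45gip1 at 0.27 ± 0.10 (SE) and Dap3, a GTP-binding protein of the small subunit, at 0.12 ± 0.07. Of 21 assembly factors 12 were higher, with 4 of them (6.67% of all genes) and 0 of the lower ones (7.19% of all genes) at an unadjusted p under 0.05: the helicase Dhx30 (0.26 ± 0.08), Fastkd2 (0.23 ± 0.08), C1qbp (0.29 ± 0.11) and Eral1, a chaperone of the small ribosomal RNA (0.44 ± 0.19). Of 14 genes for the expression and copying of mitochondrial DNA, 7 were higher, and the 3 past that limit, with the same shares of all genes as above, were Tefm, an elongation factor of transcription (0.22 ± 0.07), Tfam, which packages mitochondrial DNA (0.26 ± 0.09), and Polg, its polymerase (0.26 ± 0.10). Of 11 synthetases and partners that charge mitochondrial tRNAs, 8 were higher, Tars2 at 0.20 ± 0.07. Of 10 translation factors 5 were higher and none in either direction was past the limit. Of 23 import and chaperone genes 12 were higher, among them Timm10 (0.30 ± 0.09) and Hspa9, the mitochondrial Hsp70 (0.25 ± 0.08).

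Of 11 regulators of mitochondrial biogenesis 8 were higher in the first hour. Gabpb1, a subunit of the factor GABP, was at 0.27 ± 0.08 (SE), Pprc1, a coactivator of the PGC-1 family, at 0.27 ± 0.10, and the nuclear receptor gene Esrra at -0.20 ± 0.06. Between the windows these were at -0.26 ± 0.07, -0.35 ± 0.09 and 0.22 ± 0.05. None of the genes in these 2 paragraphs passed in limma, where the smallest adjusted p of any gene in the first hour was 0.331.

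The nearest other gene groups had different counts. Of 43 cytosolic ribosomal protein genes, 29 were lower in the first hour, with a median of -0.0084, and 27 lower between the windows, with a median of -0.0040. Of 75 respiratory chain and ATP synthase genes 48 were lower in the first hour (median -0.03) and 54 higher between the windows (median 0.04). Of 31 genes of nucleolar ribosome biogenesis, the making of cytosolic ribosomes, 29 were higher in the first hour (median 0.13) and 30 lower between the windows (median -0.13). The mitochondrial ribosomal protein medians of 0.04 and -0.05 lay between the latter pair of groups; the differences between the groups were not tested. Array by array, the median deviation of the members from their own means was 0.01 and -0.03 in untreated replicates 1 and 2, -0.0083, 0.02 and 0.05 at 20, 40 and 60 min and -0.02, -0.0006 and -0.03 at 120, 180 and 240 min.

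**Figure D4:**
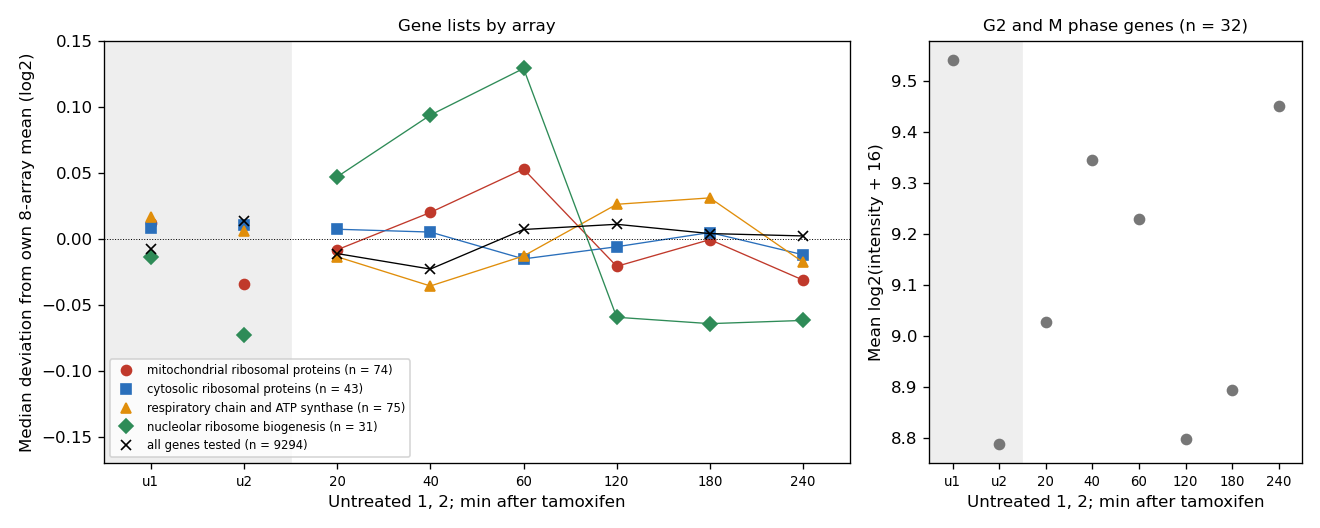
Left, the median over each gene list of the log2 deviation from the gene's own mean over 8 arrays, for untreated replicates 1 and 2 (u1, u2, grey band) and each time after tamoxifen; right, the mean level of 32 G2 and M phase genes on the same arrays. Members reached 0.05 at 60 min, nucleolar genes 0.13, and the G2 and M phase mean was lowest in untreated replicate 2 and at 120 min.

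Promoter sequence was read because nuclear genes for mitochondrial proteins are known to carry sites for NRF1, for GABP and other ETS factors, and for YY1. RefSeq promoters of build GRCm38.p6, with 250 bases before and 50 after the start, matched 65 of the 74 genes and gave 71 promoters of 300 bases. On either strand, the NRF1 motif searched, GCGCA and GCGC with any single base between them, was found in 12 of them, or 16.9%, against 9.64% of the 9632 promoters of all genes tested and 4.6% of all 32851 promoters. CCGGAAGT (ETS factors, GABP among them) was found in 11, or 15.5%, against 7.7% and 3.89%. AAGATGGCG (YY1) was in 7, or 9.86%, against 2.82% and 1.4%, and CACGTG, the E-box bound by Myc among others, in 7, or 9.86%, against 9.95% and 7.15%. None of these motifs contains another, and 4 promoters held more than 1 of them. Among promoters of members that were higher between the windows, 8 of 25 held the NRF1 motif (32%), and among those that were lower, 4 of 46 (8.7%). For the ETS motif the shares were 20% and 13%, for the YY1 motif 8% and 10.9% and for the E-box 8% and 10.9%. The 7 promoters with an E-box belong to 5 genes. Mrpl2 has several overlapping listed starts, all counted in the E-box share of the lower members. The split was made after the values were seen and was not tested. A match describes the letters and not a bound site.

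To show these matches, for each of the first 3 motifs the sequences are from the 2 members with the smallest p between the windows among those with a match wholly before the start. Each stretch is 100 bases of the gene's strand, 5′ to 3′, with the match in capitals. For NRF1 they are Mrps21 (chr3:95871551-95871650, minus strand; 0.17 ± 0.07 between the windows, SE) and Mrpl44 (chr1:79775918-79776017, plus strand; -0.11 ± 0.06). For ETS they are Mrps22 (chr9:98601680-98601779, minus strand; -0.24 ± 0.08) and Mrpl48, at 1 of its 4 listed starts (chr7:100583131-100583230, minus strand; -0.38 ± 0.14). For YY1 they are Mrps11 (chr7:78782977-78783076, plus strand; -0.06 ± 0.04) and Mrpl36 (chr13:73330909-73331008, plus strand; 0.08 ± 0.07).
Mrps21: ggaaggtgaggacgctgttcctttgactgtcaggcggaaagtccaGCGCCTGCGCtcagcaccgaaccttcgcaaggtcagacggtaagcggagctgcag
Mrpl44: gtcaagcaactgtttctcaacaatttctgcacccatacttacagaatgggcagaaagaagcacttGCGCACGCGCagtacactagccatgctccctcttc
Mrps22: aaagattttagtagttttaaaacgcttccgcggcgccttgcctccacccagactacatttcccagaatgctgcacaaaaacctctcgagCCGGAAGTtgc
Mrpl48: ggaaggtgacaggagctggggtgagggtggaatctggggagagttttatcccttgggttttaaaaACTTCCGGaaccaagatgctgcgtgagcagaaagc
Mrps11: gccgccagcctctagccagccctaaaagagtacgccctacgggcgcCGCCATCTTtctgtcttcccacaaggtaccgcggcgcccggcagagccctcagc
Mrpl36: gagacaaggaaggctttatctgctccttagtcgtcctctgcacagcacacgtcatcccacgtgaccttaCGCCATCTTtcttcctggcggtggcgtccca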

How the data were processed

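Per the labels, RNA taken up in Trizol was turned into biotinylated cRNA for Affymetrix arrays. The authors deposited linear intensity values for 22690 probe sets; their method of summarising probes and scaling is not given here. Values were used as deposited, as log2(intensity + 16), so folds of dim probe sets are understated. GEO's platform annotation named 20380 probe sets with 1 symbol and 691 with several; 1555 are unnamed here and 64 are controls. The dimmest 30% were left out, and each gene was represented by its brightest probe set. The number of arrays limits the precision.

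Groups came from the sample titles; a shared description names tamoxifen for all arrays, and the titles were followed. One limma fit (limma 3.58.1, R 4.3.3) over all 8 arrays had 3 windows and 5 residual degrees of freedom, with Benjamini-Hochberg adjustment over 9294 genes and a threshold of 0.05. The fit was also run on simulated data with changes larger than any member difference in it. That run therefore does not speak to differences of the size described here. Gene lists are described by counts and medians, with no set test. Alternatives were pseudocounts of 1 and 64, no filter or 50%, median centring, quantile normalization, all probe sets, array weights, a G2 and M phase covariate, and leaving out each array. Members named are those that pass in a comparison or, where none pass, the 5 with the smallest p in each direction, the brightest, the dimmest and the most variable members, the Mrps18 paralogs, stalk and decoding genes, Mrps36 and genes whose probe sets disagree; from each list up to 4 with the smallest p. The members and lists were chosen with earlier results of these data known.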

Additional observations from a re-analysis of the deposited data

How the results depend on the processing

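No paired analysis was possible because each tamoxifen time has a single array and no label ties it to an untreated array. The count of genes called was 0 in all 3 comparisons as reported. It became 575 in the first hour and 513 between the windows with the G2 and M phase covariate, and 2859 between the windows with array weights. For 120 to 240 min against untreated it became 1 with a pseudocount of 1, with array weights and with that covariate. Leaving out 1 array at a time gave 0 to 2 genes in the first hour, 0 to 1 in the later window and 0 to 1024 between the windows, the last without the 240 min array. The cause was not tested. The median difference of the members lay between 0.0108 and 0.0700 in the first hour when 1 array was left out, lowest without untreated replicate 2 and highest without replicate 1. It lay between -0.0317 and 0.0188 in the later window and between -0.0555 and -0.0284 between the windows, nearest 0 without the 60 min array. The other alternatives moved these medians by less than the spread between arrays of a window, 0.026. Members below both untreated arrays at 180 min numbered 5 with median centring in place of 12. Of the members named by p, Mrpl39 in the later window reversed to -0.0060 without untreated replicate 1 (up to 0.123 over the arrays left out) and Mrps23 to -0.0350 without replicate 2 (up to 0.198). No other named member reversed under the alternatives that kept 1 probe set per gene. The alternative with all probe sets did not follow named members, and there a dimmer probe set of Mrps9 gave 0.0090 in the later window. Probe brightness and single arrays per time limit all values.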
